A study of Mus musculus with 12 samples.

Results

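Interferon-stimulated genes are the genes that cells switch on when interferons, the signalling proteins of the antiviral response, bind their receptors. Open chromatin near 38 such genes was examined in mouse HoxB8 cells. The genes were taken from a list of named members, and for each one the ATAC-seq peaks that overlapped the gene span plus 50 kb on either side, or plus 10 kb, were collected. The 38 genes are among 21633 genes placed on the mm10 chromosomes. Members whose 50 kb windows overlap share peaks, so the 38 genes were also counted as 26 loci.

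ATAC-seq uses a transposase that cuts and tags accessible DNA, so a peak marks a stretch of open chromatin and not a transcript level. HoxB8 cells are bone marrow cells that grow as immature myeloid cells while an estrogen-controlled HoxB8 protein is active. All 12 libraries came from such cells kept in estrogen and stem cell factor medium and taken 48 h after estrogen removal. The 4 groups of 3 libraries combine a guide RNA with a pMICH vector: a non-targeting guide with the empty vector (sgNT/Empty), the Asxl1 guide B2 with the empty vector (sgB2/Empty), the non-targeting guide with CSF3R T618I (sgNT/T618I), and the Asxl1 guide B2 with CSF3R T618I (sgB2/T618I). The series describes the guide as truncating Asxl1, a chromatin regulator, and T618I is a mutation in CSF3R, which encodes the G-CSF receptor, carried here as an added, overexpressed copy. The labels name 1 cell line and 1 Asxl1 guide, and separate cultures are not stated for the 3 libraries in a group, so p-values measure only the spread between these libraries. A peak list does not show the edited Asxl1 sequence or the CSF3R transgene, so the labels could not be checked against them. In bulk cells, fewer cells with an open site and less opening per cell cannot be told apart.

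The lists held 18484 to 32975 peaks covering 9.23 to 17.9 Mb per library. The 6 Empty lists covered 9.23 to 16.8 Mb and the 6 T618I lists 12.6 to 17.9 Mb. Peak lists carry no read counts, so depth is unknown here, and covered length was scaled to the same total in each library. Genes of immature myeloid cells, including Spi1, Cebpa, Mpo and Elane, had peaks within 10 kb for 8 of 8 listed genes. So did all 5 B lymphoid, 10 monocyte and macrophage and 6 plasmacytoid dendritic cell genes listed and 4 of 5 T and NK cell genes (Cd3e had none), so presence of a peak did not separate these lists. Of 10 listed genes of mature neutrophils, 8 passed as higher within 50 kb with T618I over both guides (limma, adjusted p under 0.05), against 4.06% of all genes. Within 10 kb 6 passed, against 2.08%. The 8 include Csf3r itself, and both S100a8 and S100a9, which were counted singly. In sgNT cells alone 5 of the 10 passed as higher within 50 kb, against 1.16% of all genes. In sgB2 cells alone 5 did, against 1.21%.

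Interferons bind cell-surface receptors that activate JAK kinases, which phosphorylate STAT proteins. A complex that holds STAT2 and IRF9 binds the interferon-stimulated response element, whose core reads GAAA, any 2 bases, then GAAA. A second element of the pathway is the gamma-activated site TTCNNNGAA. The products then act at several levels: regulators such as Irf7 extend the response, sensors such as Ifih1 detect viral RNA, and effectors such as the Ifitm, Ifit and Gbp proteins block entry or replication. The G-CSF receptor also signals through JAK kinases and STAT proteins.

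The 250 bases before the transcription start are printed for 7 members, because the results below turn on peaks at or near them. They are RefSeq sequences on GRCm38.p6, which has the coordinates of mm10, read 5′ to 3′ on the strand of the gene. Capitals mark matches to this response element core on either strand. Ifitm1 (chr7:140967826-140968075, plus strand), Ifitm2 (chr7:140955962-140956211, minus strand) and Ifitm3 (chr7:141010745-141010994, minus strand) are neighbours. Irf7 (chr7:141266425-141266674, minus strand), Gbp2 (chr3:142620413-142620662, plus strand) and Rsad2 (chr12:26456453-26456702, minus strand) had a start peak in some groups only. Isg15 (chr4:156200819-156201068, minus strand) holds 3 overlapping matches and had no start peak.
Ifitm1: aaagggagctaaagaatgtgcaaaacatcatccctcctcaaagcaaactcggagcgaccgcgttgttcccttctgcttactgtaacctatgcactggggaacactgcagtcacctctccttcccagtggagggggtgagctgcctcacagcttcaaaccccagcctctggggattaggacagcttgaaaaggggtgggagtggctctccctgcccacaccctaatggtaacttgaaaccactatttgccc
Ifitm2: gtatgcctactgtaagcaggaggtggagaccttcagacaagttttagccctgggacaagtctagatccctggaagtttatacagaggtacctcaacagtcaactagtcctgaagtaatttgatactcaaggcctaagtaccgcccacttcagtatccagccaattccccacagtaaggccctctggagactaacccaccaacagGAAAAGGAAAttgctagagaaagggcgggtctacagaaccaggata
Ifitm3: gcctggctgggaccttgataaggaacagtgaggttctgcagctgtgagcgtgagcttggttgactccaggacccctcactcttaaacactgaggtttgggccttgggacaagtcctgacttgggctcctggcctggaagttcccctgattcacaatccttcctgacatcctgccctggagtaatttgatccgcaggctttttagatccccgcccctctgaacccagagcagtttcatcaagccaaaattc
Irf7: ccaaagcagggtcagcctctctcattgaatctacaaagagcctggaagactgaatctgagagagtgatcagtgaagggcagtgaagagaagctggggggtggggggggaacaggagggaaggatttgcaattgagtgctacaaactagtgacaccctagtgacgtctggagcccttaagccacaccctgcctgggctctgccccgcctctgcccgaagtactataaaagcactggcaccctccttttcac
Gbp2: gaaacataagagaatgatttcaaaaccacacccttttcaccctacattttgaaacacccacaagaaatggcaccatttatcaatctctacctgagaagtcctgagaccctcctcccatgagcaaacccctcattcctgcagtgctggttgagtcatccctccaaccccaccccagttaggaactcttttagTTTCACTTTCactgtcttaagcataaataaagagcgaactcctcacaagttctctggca
Rsad2: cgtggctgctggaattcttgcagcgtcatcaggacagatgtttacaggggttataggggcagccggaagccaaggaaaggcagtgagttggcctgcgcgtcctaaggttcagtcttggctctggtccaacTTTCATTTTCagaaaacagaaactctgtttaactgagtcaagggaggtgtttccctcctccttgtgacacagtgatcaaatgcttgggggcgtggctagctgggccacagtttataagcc
Isg15: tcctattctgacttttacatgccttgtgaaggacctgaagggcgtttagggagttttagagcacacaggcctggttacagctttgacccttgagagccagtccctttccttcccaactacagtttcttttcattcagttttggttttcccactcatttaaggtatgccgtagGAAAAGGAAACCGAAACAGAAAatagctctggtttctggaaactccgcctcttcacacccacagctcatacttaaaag

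A sequence before the start was found for 29 of the 38 members; Mx1, Mx2, Usp18, Dhx58, Zbp1, Iigp1, Parp9, Parp14 and Rtp4 had none. The response element core, searched on both strands, stood in 14 of the 29 members (48.3%) and in 3.51% of 17274 genes with a sequence. The gamma-activated site TTCNNNGAA, which reads the same on both strands, stood in 7 of 29 members (24.1%) and in 7.73% of all genes. In Ifitm2 the match GAAAAGGAAA begins 46 bases before the start. Ifitm1, Ifitm3 and Irf7 held no match to the core in this window. A match describes letters only, and no factor binding was measured.

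The question of the series, from its title, is how Asxl1 mutation and mutant CSF3R together act on differentiation. With T618I, the antiviral genes Ifitm1, Ifitm2 and Ifitm3 rose together. The 3 Ifitm genes encode small membrane proteins that hinder virus entry, and they form 1 locus on chr7. Of 38 members, 33 in 23 loci had enough covered length to be tested within 50 kb (a mean of at least 500 bp), and 3 of these 33 rose, against 4.06% of 15286 genes tested. One member of 33, Xaf1, passed as lower, against 2.43% of all genes. Without its sgB2/Empty group its mean was 0.238 kb, under the minimum, so it could be tested only through the group where it was high, and its change is given as a description. Changes are log2 differences of scaled covered length plus 500 bp, from limma, and a gene passed at an adjusted p under 0.05 (Benjamini-Hochberg over all genes tested). The 3 that rose share peaks and are 1 of the 23 loci tested, so they are not 3 separate counts to set against the 4.06%. Without the scaling 837 of all genes rose and 16 fell, against 621 and 371 with it, and the 3 Ifitm genes rose under both.

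Around Ifitm3, covered length within 50 kb was 5.01, 5.21 and 4.52 kb in the sgNT/Empty libraries, while sgB2/Empty had 3.09, 3.81 and 4.52 kb. With T618I it was 9.76, 10.9 and 9.40 kb under the sgNT guide, and sgB2 had 7.63, 7.12 and 9.38 kb. All 6 T618I libraries lay above all 6 Empty libraries, with no overlap. The log2 change was 0.97 ± 0.09 (SE, 6 against 6 libraries; adjusted p = 1.3e-05). For Ifitm1, the member with the highest mean over the 12 libraries, the libraries had 5.91, 5.51 and 4.81 kb (sgNT/Empty), 4.70, 4.52 and 5.74 kb (sgB2/Empty), 10.2, 10.97 and 9.06 kb (sgNT/T618I) and 7.81, 6.66 and 8.69 kb (sgB2/T618I). Here too the T618I libraries lay above the Empty ones without overlap. Ifitm1 changed by 0.71 ± 0.09 (adjusted p = 0.00019) and Ifitm2 by 0.62 ± 0.08 (adjusted p = 0.00034). For Ifitm1 the 4 group means were 5.41 ± 0.56, 4.99 ± 0.66, 10.1 ± 0.96 and 7.72 ± 1.02 kb (SD, n = 3, in the order sgNT/Empty, sgB2/Empty, sgNT/T618I, sgB2/T618I). For Ifitm2 they were 5.40 ± 0.41, 5.03 ± 0.65, 9.42 ± 0.99 and 7.22 ± 0.57 kb. These 3 were the only members of 33 whose 6 T618I libraries all exceeded the 6 Empty libraries, a pattern that 1.65% of all genes tested showed. As neighbours that share peaks, the 3 count as 1 locus of 23. Per 100 kb of window, the 3 Ifitm genes had the highest means of all members over the 12 libraries, led by Ifitm1 with 6.88 kb. These means include the raised T618I libraries. In the Empty groups Irgm1 had more covered length within 50 kb than Ifitm1, with means of 5.94 kb (sgNT/Empty) and 5.59 kb (sgB2/Empty). The windows also hold Nlrp6, Pgghg, Ifitm5 and Ifitm6, and covered length does not tell which gene a region serves.

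**Figure D1:**
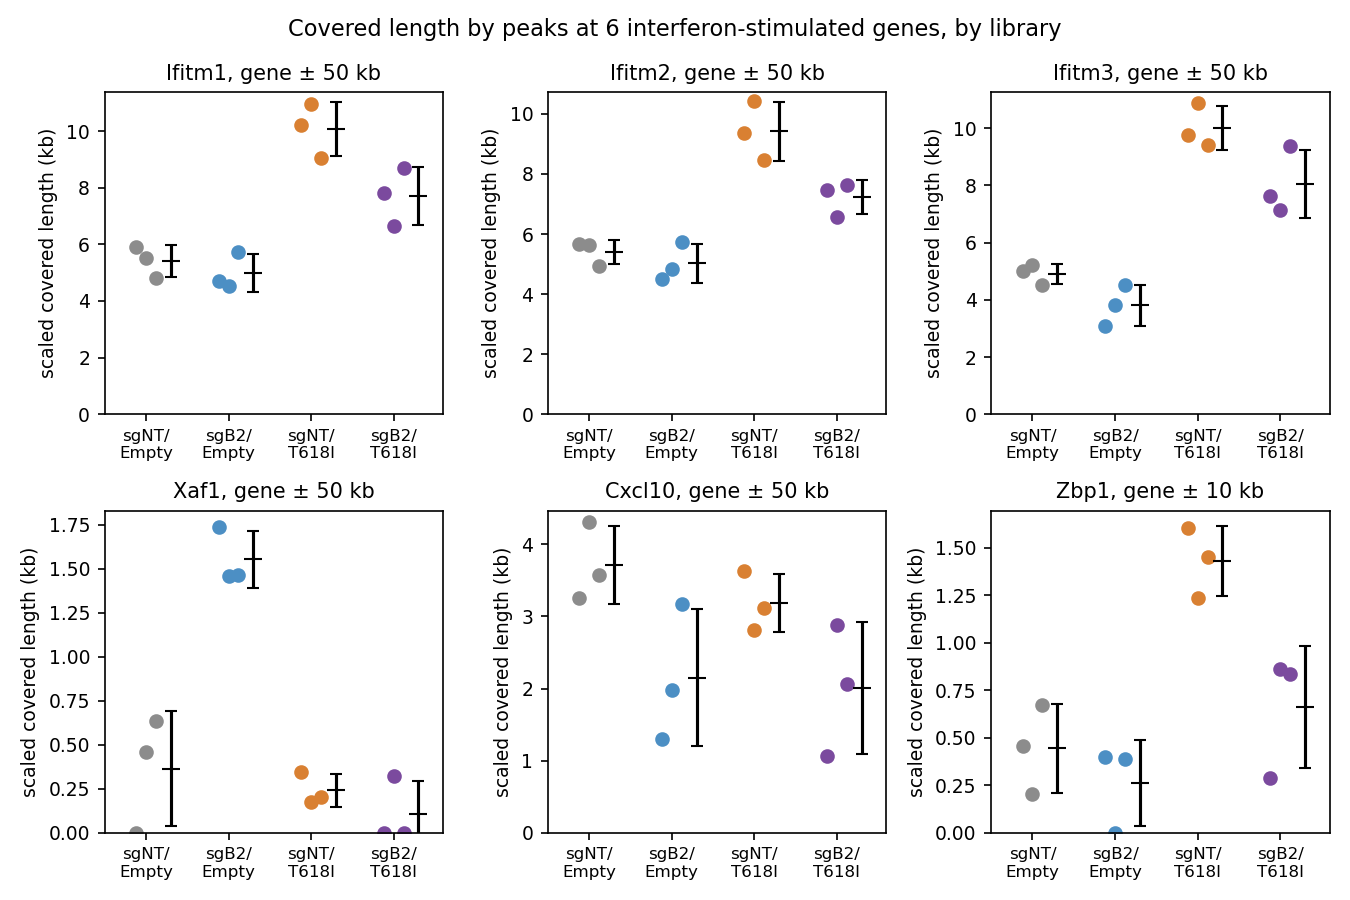
Scaled covered length in kb (vertical axis) at 6 members in the 4 groups (horizontal axis); each point is 1 library, and bars give the mean and SD of 3 libraries beside the points. At Ifitm1, Ifitm2 and Ifitm3 every T618I point lies above every Empty point; at Xaf1 the 3 sgB2/Empty points, from 1.46 to 1.74 kb, lie above all others.

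The Ifitm rise was seen with both guides. In sgNT cells T618I raised Ifitm3 by 0.96 ± 0.13 (3 against 3 libraries; adjusted p = 0.0013), Ifitm1 by 0.84 ± 0.12 (adjusted p = 0.0022) and Ifitm2 by 0.75 ± 0.12 (adjusted p = 0.0028). In sgB2 cells the changes were 0.99 ± 0.13 for Ifitm3 (adjusted p = 0.00098), 0.58 ± 0.12 for Ifitm1 (adjusted p = 0.025) and 0.49 ± 0.12 for Ifitm2 (adjusted p = 0.042). In sgNT cells 1.16% of all genes rose and 0.327% fell, and in sgB2 cells 1.21% rose. The differences between the guides, from -0.26 to 0.04, did not pass (interaction, adjusted p = 0.999 for each of the 3). In sgB2 cells Ifitm1 and Ifitm2 were near the threshold: leaving out single libraries kept Ifitm1 past it in 8 of 12 cases and Ifitm2 in 3 of 12, with adjusted p up to 0.12 and 0.16. Ifitm3 passed in 12 of 12 in both guides. When each list was shortened to the smallest covered length by its peak p-values, the 3 genes still passed over both guides (adjusted p of 0.021, 0.033 and 0.018 for Ifitm1, Ifitm2 and Ifitm3) but not within either guide, where adjusted p was 0.085 to 0.29.

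**Figure D2:**
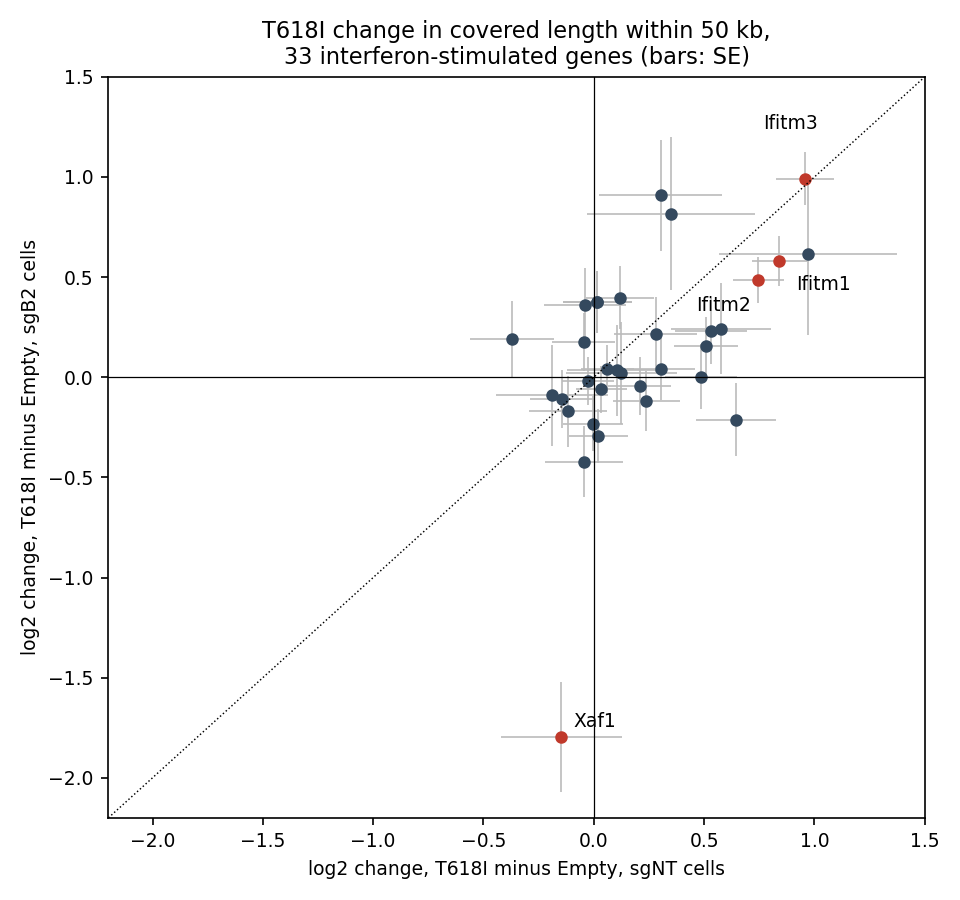
Log2 change with T618I in sgNT cells (horizontal) against that in sgB2 cells (vertical) for the 33 members tested within 50 kb; bars are SE, red points are members that passed over both guides, and the dotted line marks equal change. Ifitm3 lies at 0.96 and 0.99, while Xaf1 lies at -0.15 and -1.80.

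The Ifitm locus, 156 kb across the windows of the 3 genes, held 20 merged peak regions, 7 of them with a peak in all 12 libraries. Covered length in these 7 shared regions was 5.03 ± 0.80, 4.65 ± 0.68, 7.99 ± 0.92 and 6.51 ± 0.97 kb (SD, n = 3, the same group order). In the other 13 regions it was 2.03 ± 0.62, 1.19 ± 0.59, 5.02 ± 0.57 and 3.69 ± 0.13 kb. In 5 of the 7 shared regions the mean was higher with T618I under each guide. Among the shared regions the largest difference in mean width was at chr7:140989097-140991466, between Ifitm1 and Ifitm3 and 19.3 kb from the Ifitm3 start. Its mean scaled width was 625 bp in sgNT/Empty, and 702 bp with sgB2, with no Empty library above 1148 bp. With T618I it was 1930 bp under sgNT, and 1829 bp under sgB2, with no library below 1522 bp. It was the 1 region of the 7 in which all T618I libraries exceeded all Empty libraries. The shared region nearest the Ifitm3 start, chr7:141008281-141009458, had mean widths of 1082, 1082, 926 and 977 bp in the same group order, with overlapping groups. At the Ifitm6 gene the shared region chr7:141016523-141017917 had means of 517, 387, 1069 and 771 bp.

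At the Ifitm1 start, the region chr7:140967779-140968504 overlaps the printed Ifitm1 sequence. It had a peak in 2 of 3 sgNT/Empty libraries, 0 of 3 sgB2/Empty libraries and all 6 T618I libraries. Among peaks with a -log10 q of at least 3, and also in the shortened lists, the Ifitm1 start had a peak in 0 of 6 Empty and 6 of 6 T618I libraries. The Ifitm2 start went the other way in the shortened lists, with a peak in 3, 3, 1 and 0 libraries in the same group order. As deposited and at that threshold it had a peak in 3 of 3 libraries of every group. A second region, chr7:141006468-141006775, lies 3.97 kb from the Ifitm3 start and was gained with T618I under both guides, with peaks in all 6 T618I and no Empty libraries. The regions chr7:140971276-140971616 and chr7:141004524-141004923 had peaks in 3 of 3 sgNT/T618I libraries and in none of the other 9. At the far side, chr7:141047428-141049097 had mean scaled widths of 453, 115, 1065 and 830 bp in the same group order. Its lowest T618I library, at 706 bp, was only just above the highest Empty library, at 697 bp. Widths as deposited overlapped, with 838 bp in sgNT/Empty 3 against 809 and 634 bp in sgB2/T618I 1 and 3.

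**Figure D3:**
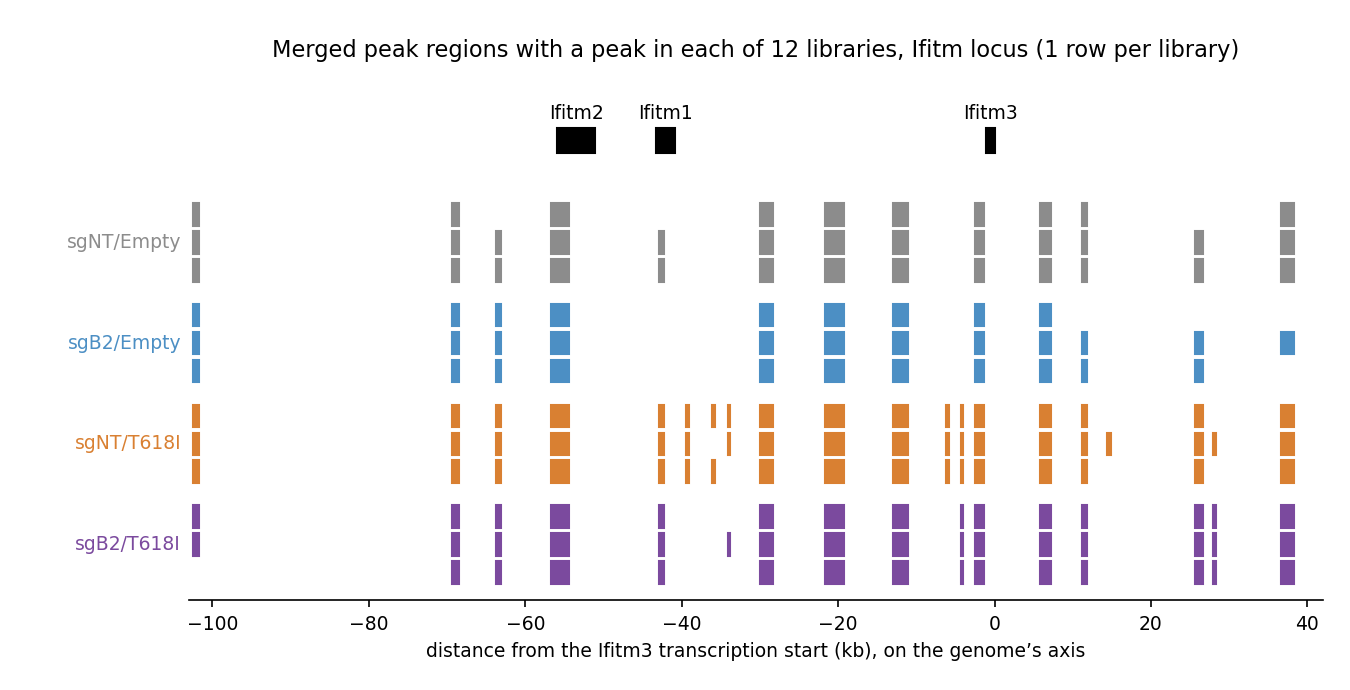
Distance from the Ifitm3 transcription start in kb (horizontal) of every merged region of the Ifitm locus; each row is 1 of 12 libraries, coloured by group, and a box shows that the library had a peak in that region, drawn at the merged width and not at the width of its own peak. Black bars are the genes. The region at the Ifitm1 start, 42.2 kb away, is boxed in all 6 T618I rows and in 2 Empty rows.

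In the 10 kb windows 24 members in 22 loci were tested, and 2 passed as higher over both guides, Ifitm2 and Zbp1, against 2.08% of 11890 genes. Ifitm2 had 0.83, 1.32 and 1.16 kb (sgNT/Empty), 0.83, 0.79 and 0.82 kb (sgB2/Empty), 2.31, 3.10 and 2.07 kb (sgNT/T618I) and 2.03, 1.52 and 1.74 kb (sgB2/T618I). All T618I libraries were higher, and the change was 0.84 ± 0.11 (adjusted p = 0.0016). It rose in sgNT cells by 0.90 ± 0.16 (adjusted p = 0.027; 0.328% of genes rose) and in sgB2 cells by 0.78 ± 0.16 (adjusted p = 0.035; 0.53% of genes rose). With 1 library left out these calls held in 8 and 5 of 12 cases (adjusted p up to 0.12 and 0.13), and in the shortened lists the change over both guides was 0.48 (adjusted p = 0.058). Ifitm3 gave 0.45 ± 0.13 (adjusted p = 0.092) at 10 kb, and Ifitm1 fell under the minimum and was not tested there.

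Zbp1, a sensor of Z-form nucleic acids that can start cell death, had 0.46, 0.21 and 0.67 kb within 10 kb (sgNT/Empty), and 0.40, 0 and 0.39 kb with sgB2/Empty. The sgNT/T618I libraries had 1.60, 1.23 and 1.45 kb, and those of sgB2/T618I 0.29, 0.86 and 0.84 kb. The sgNT/T618I libraries were the highest, while 1 sgB2/T618I library lay within the range of the Empty libraries. Without the sgNT/T618I group the mean was 0.456 kb, under the minimum, so Zbp1 was tested only through its highest group and its test is no support for a rise. The fitted difference over both guides was 0.84 ± 0.18 (adjusted p = 0.024), and without single libraries Zbp1 passed in 7 of 12 cases, with adjusted p up to 0.066. Within 50 kb Zbp1 did not pass (0.22 ± 0.13; adjusted p = 0.32). The 10 kb signal lay largely in the region chr2:173217906-173219839 at 1 end of the gene, which had peaks in all libraries except the 3 of sgB2/Empty. By presence alone it was lost with sgB2 in Empty cells and gained with T618I in sgB2 cells. Neither held among peaks with a -log10 q of at least 3, where the Zbp1 end had a peak in 0, 0, 3 and 0 libraries in the same group order, nor in the shortened lists, where it had 1, 0, 0 and 0.

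Xaf1, which encodes a protein tied to apoptosis, passed through 1 high group. Within 50 kb it had 0, 0.46 and 0.63 kb (sgNT/Empty), 1.74, 1.46 and 1.46 kb (sgB2/Empty), 0.35, 0.17 and 0.20 kb (sgNT/T618I) and 0, 0.32 and 0 kb (sgB2/T618I). The sgB2/Empty group stood alone, and the other groups overlapped. The fitted Xaf1 difference with T618I was -0.97 over both guides, -1.80 in sgB2 cells (where 0.393% of genes fell) and -0.15 in sgNT cells. With sgB2 in Empty cells it was 1.33, and Xaf1 was the 1 member of 33 past the threshold there, against 0.229% of genes risen and 0.124% fallen. Each of these restates the height of the sgB2/Empty group that let the gene be tested, so nothing is read from their p-values. The interaction, -1.65 ± 0.39, had the smallest p of all members and did not pass (adjusted p = 0.64). The sgB2/Empty signal lay in chr11:72260049-72261087, a region inside the neighbouring gene Slc13a5 and 40.4 kb from Xaf1, with peaks in 1, 3, 0 and 0 of 3 libraries in the same group order. Its peaks ranked at the 20.4th percentile of their lists on average, and without any 1 of the 3 sgB2/Empty libraries the Xaf1 window fell under the minimum and was not tested. Among peaks with a -log10 q of at least 3 it was not tested either. At the Xaf1 start 4 libraries had a peak, 1 per group.

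By role, the members that passed over both guides within 50 kb were classed as antiviral effectors. They are the 3 Ifitm genes of 1 locus and Xaf1, tested only through its high group, so nothing is read from this about the role. Of 19 effectors 16 were tested within 50 kb: 3 rose, 1 (Xaf1) passed as lower and 12 did not pass, with a median change of 0.25. The effector nearest the threshold was Isg20, an RNA exonuclease, at 0.38 ± 0.12 (adjusted p = 0.060), followed by Samhd1, which degrades the building blocks of DNA, at 0.33 ± 0.10 (adjusted p = 0.063). The 5 factors and regulators, Stat2, Irf9, Irf7, Isg15 and Usp18, had changes of -0.13 to 0.08, and none passed. The 4 sensors, the RNA helicases Ifih1 and Dhx58, the kinase Eif2ak2 and Zbp1, had changes of -0.14 to 0.26 and none passed within 50 kb. Of 6 GTPases, which attack the compartments of intracellular pathogens, 4 were tested and none passed (0.05 to 0.41). Parp9, Parp14 and Dtx3l, enzymes of ADP-ribosylation and ubiquitin transfer, had changes of 0.19 to 0.79 and none passed; Parp9 and Dtx3l share the same peaks. Over the 33 tested, the median change was 0.16 against -0.05 for all genes, and 23 of 33 (69.7%) were above 0 against 38.8% of all genes. These 33 members are 23 loci and neighbours share peaks, so they are not 33 separate counts. In the shortened lists the member loci other than Ifitm took 0.416 and 0.414% of covered length in sgNT/Empty and sgB2/Empty. There sgNT/T618I and sgB2/T618I had 0.412 and 0.397%.

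**Figure D4:**
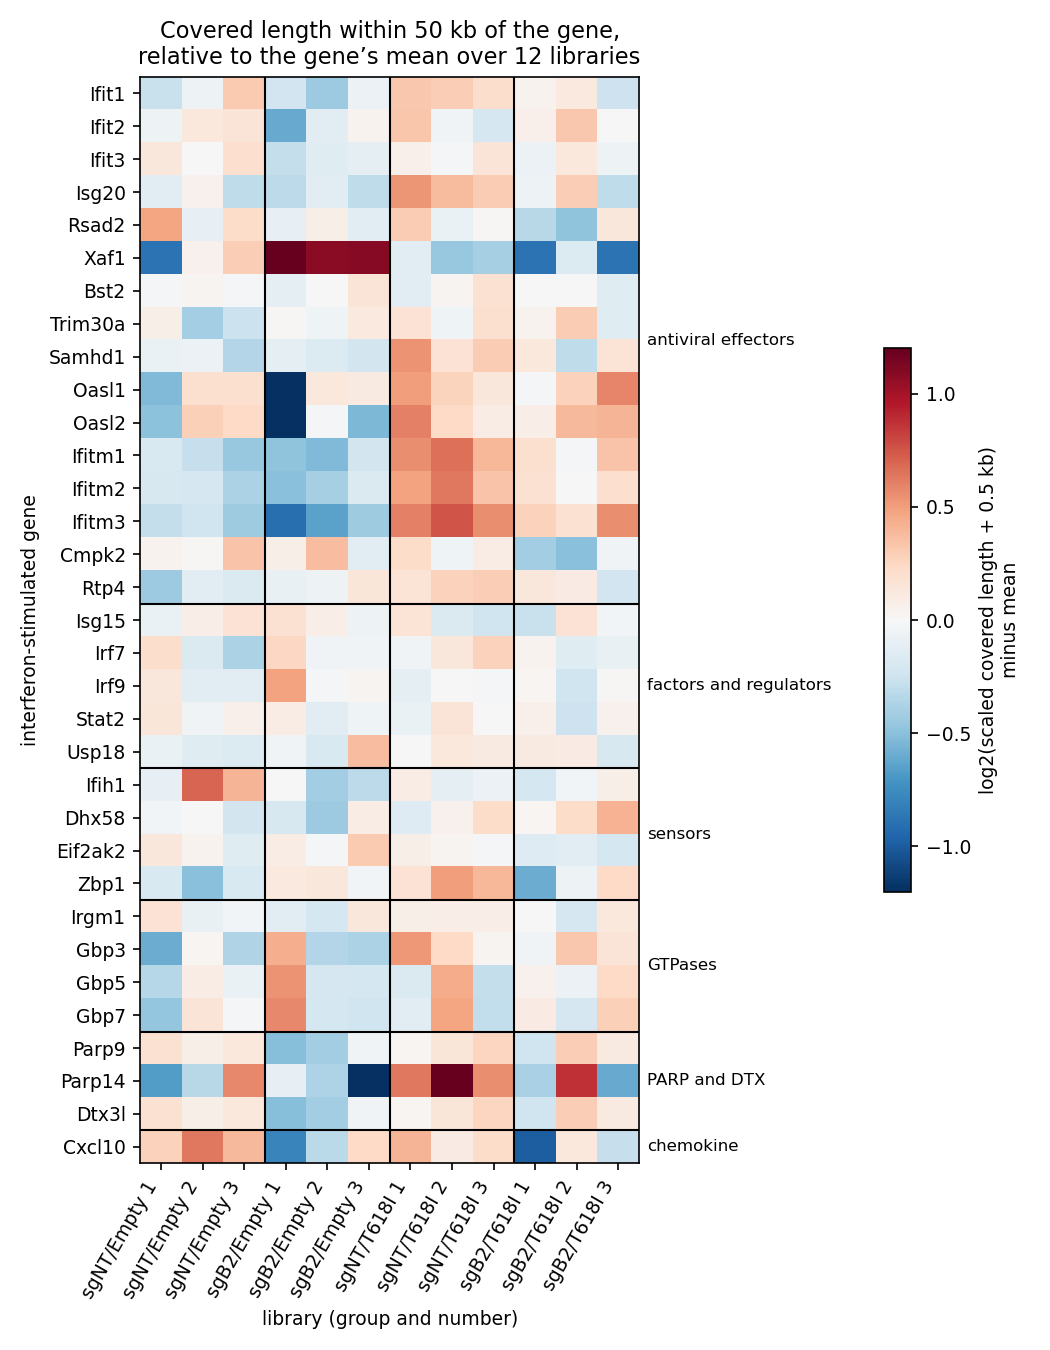
Log2 of scaled covered length plus 0.5 kb, minus the mean over the 12 libraries of the gene (colour), for the 33 members tested within 50 kb (rows, ordered by role) in 12 libraries (columns). The Ifitm3 row is red in all 6 T618I columns. The Ifitm1 and Ifitm2 rows are red in the sgNT/T618I columns, but near their mean in the lowest sgB2/T618I column. The Xaf1 row is dark red in the 3 sgB2/Empty columns, and most factor and regulator rows stay pale.

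With sgB2 over both vectors, no member of 33 passed in limma, against 2.83% of all genes, and 11 members (33.3%) had an unadjusted p under 0.05, against 15.7% of all genes. Of these 11, 1 was higher with sgB2 and the rest were lower. With scaling within each chromosome, an alternative chosen after seeing the data, no member passed either and the share of all genes was 1.17%; chr1, which holds no member, took 9.36 and 9.14% of covered length in the sgB2 groups against 6.56 and 6.73% in the sgNT groups. The member with the smallest p was Cxcl10, which encodes a chemokine that draws T cells. It had 3.26, 4.31 and 3.58 kb (sgNT/Empty), 1.30, 1.98 and 3.18 kb (sgB2/Empty), 3.62, 2.82 and 3.12 kb (sgNT/T618I) and 1.07, 2.89 and 2.06 kb (sgB2/T618I). Most sgB2 libraries were lower, with overlap, and the change was -0.67 ± 0.18 (adjusted p = 0.054). Over 22 alternatives Cxcl10 had adjusted p from 0.018 to 0.92, and it passed in 4, among them without sgB2/Empty 3 and without sgB2/T618I 2. In T618I cells no member passed with sgB2 (0.36% of all genes did; 9 members, 27.3%, had an unadjusted p under 0.05, against 10.1% of all genes); the smallest p was at Ifitm2. Its T618I libraries had 9.38, 10.4 and 8.45 kb with sgNT, and 7.48, 6.57 and 7.62 kb with sgB2. The sgB2 libraries were all lower, and the difference was -0.36 ± 0.12 (adjusted p = 0.22). Of the 33 members 28 (84.8%) had a lower value with sgB2 in T618I cells, against 48.0% of all genes not above 0, with a median of -0.10 against 0.01 for all genes. The 9 members with an unadjusted p under 0.05 in T618I cells were all lower. The 33 members are 23 loci and neighbours share peaks, so these counts, and those over both vectors, are not of 33 separate members. Merged regions in member windows numbered 0 gained and 7 lost in this comparison as deposited, but 1 gained and 0 lost in the shortened lists. No member passed the interaction (1 gene of 15286 did, 0.00654%; 2 members, 6.06%, had an unadjusted p under 0.05, near the 4.91% of all genes).

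At the transcription starts, 14 of 38 members had a peak within 1 kb in all 12 libraries, 9 in none and 15 in between. For 29 members the start came from the RefSeq table; for the other 9, either gene end was used. Of the 29, 12 (41.4%) had a start peak in all libraries and 7 (24.1%) in none, against 43.1 and 45.6% of 17274 genes. The best peak within 10 kb ranked highest for Bst2, the tether that holds budding virus, and Stat2. Its median rank was at the 95.7th percentile of its list for Bst2 and the 93.1st for Stat2. For Bst2 the high-ranked region, chr8:71542626-71543247, lies at the start of the neighbouring gene Mvb12a (mean rank 95.8). The region at the Bst2 start itself had a mean rank of 71.2, and the region at the Stat2 start 91.1. Among peaks with a -log10 q of at least 3, 9 members kept a start peak in all libraries. Ifi44 and Iigp1 had no peak within 50 kb in any library, the lowest level of all members. Ifitm3, Isg15, Ifit3 and Cxcl10 had no start peak in any library, although the best peak within 10 kb of Isg15 had a median rank at the 87.5th percentile. The high-ranked region there, chr4:156197134-156198224, lies at the start of the neighbouring gene Agrn. Mx1 and Mx2, annotated as transcribed pseudogenes in the reference, together with Gbp2, Ifi44 and Iigp1, were the 5 members under the 50 kb minimum.

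Among the 29 members with a RefSeq start, start peaks of 3 were gained with T618I by the strict count of 3 of 3 against 0 of 3 libraries. In sgNT cells these were Irf7 and Gbp2, against 0.388% of 17274 starts, and in sgB2 cells Ifitm1, against 0.336%. Of the 9 members read at either gene end, Zbp1 was gained in sgB2 cells, as above. At Irf7, the factor that drives interferon alpha production, the peak chr7:141266026-141266550 had 0, 0, 3 and 2 libraries in the same group order; its widths as deposited were 498, 476 and 515 bp in sgNT/T618I and 274, 487 and 0 bp in sgB2/T618I. At Gbp2, a guanylate-binding protein, chr3:142620354-142621429 had 0, 0, 3 and 1 libraries and overlaps the printed Gbp2 sequence. With sgB2 in T618I cells Rsad2, the antiviral enzyme viperin, and Oasl2 lost their start peaks, against 0.388% of starts. At Rsad2 the peak chr12:26456342-26456655 had 1, 1, 3 and 0 libraries. In the shortened lists the Irf7, Gbp2, Rsad2 and Oasl2 start peaks were absent from all 12 libraries, while with peaks of a -log10 q of at least 3 the Irf7 peak kept its 3 and 2 T618I libraries and Gbp2 had 1. At that threshold Rsad2 had 1, 0, 3 and 0 libraries, and Oasl2 had none in any of the 12, which ends its loss. Members with a start peak, or for the 9 without a RefSeq start a peak at either gene end, numbered 18, 23 and 24 (sgNT/Empty), 16, 19 and 19 (sgB2/Empty), 26, 27 and 24 (sgNT/T618I) and 21, 25 and 20 (sgB2/T618I). Over all genes the share was 45.7 to 50.02% in the 12 libraries. In the shortened lists the members numbered 11 to 18 in Empty and 11 to 13 in T618I libraries, and the share of all genes was 39.0 to 45.9%. The group means were thus higher with T618I as deposited (25.7 and 22 against 21.7 and 18 members, sgNT and sgB2) and lower in the shortened lists (12.3 and 12.3 against 14.3 and 13.7).

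**Figure D5:**
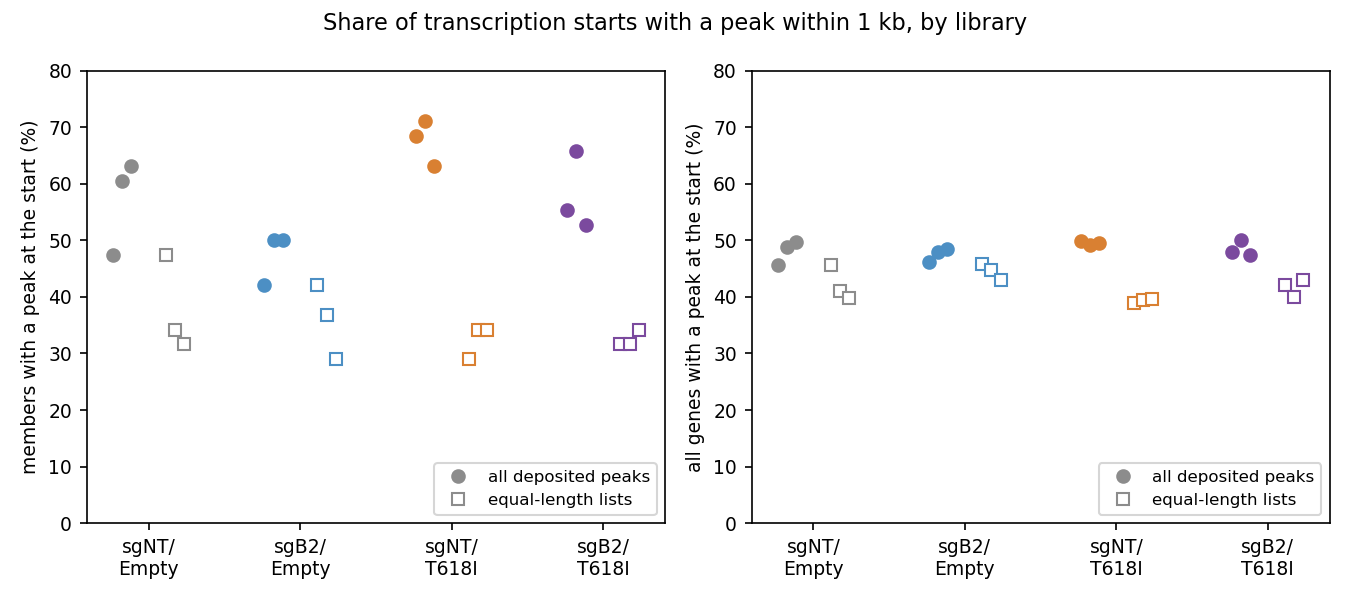
Percent of the 38 members (left) and of 17274 genes (right) with a peak within 1 kb of a transcription start (vertical axes, from 0) in each library, by group; filled circles are the lists as deposited and open squares the lists shortened to equal covered length. For 9 of the 38 members, which have no RefSeq start, a peak at either gene end was counted, while the 17274 genes were read at RefSeq starts only. As deposited, the members reach 71.1% in 1 sgNT/T618I library. In the shortened lists they stay at 28.9 to 34.2% in all T618I libraries.

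Member windows held 226 merged regions: 72 had a peak in every library, and 173 had one in 2 or more. With T618I in sgNT cells 11 of 173 regions (6.36%) were gained and none lost, against 3.24% gained and 0.55% lost of all 37113 regions. In sgB2 cells 7 (4.05%) were gained and 1 lost, against 3.24% gained and 0.911% lost. With sgB2, no region was gained in either vector (0.701% of all regions in Empty and 0.878% in T618I cells were); 1 was lost in Empty cells (0.578%, against 0.94% of all regions) and 7 in T618I cells (4.05%, against 1.84%). In the shortened lists of 101 regions the T618I counts were 2 gained and 3 lost in sgNT cells and 1 gained and 5 lost in sgB2 cells. Besides the Ifitm region, 1 region was gained under both guides, chr2:157153288-157153858 in the Samhd1 window, inside Rbl1 and 18.2 kb from the Samhd1 start. Its deposited widths were 465, 358 and 571 bp in sgNT/T618I and 387, 397 and 343 bp in sgB2/T618I. Nearer to Samhd1, chr2:157137198-157139086 had peaks in the 3 sgNT/T618I libraries alone, with widths of 1757, 962 and 1174 bp. Further gains were chr16:97468023-97468301 in the Mx1 window (0, 0, 1 and 3 libraries), chr11:48823687-48824103 in the Irgm1 window (0, 1, 3 and 2) and chr16:23609765-23610165 in Rtp4 (0, 0, 3 and 1).

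The member loci together took 0.477 ± 0.0053, 0.457 ± 0.024, 0.562 ± 0.011 and 0.487 ± 0.021% of covered length (SD, n = 3, the same group order). Of this, the Ifitm locus took 0.0505, 0.0417, 0.0929 and 0.0728%. The other 25 loci took 0.427, 0.415, 0.470 and 0.415%, so that sgNT/T618I was higher and the remaining groups were close. In the shortened lists the other loci took 0.416, 0.414, 0.412 and 0.397%, and the Ifitm locus 0.0431, 0.0425, 0.0776 and 0.0680%, with 1 sgB2/T618I library (0.0506%) under the highest Empty library (0.0534%).

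Of 52 further genes of the pathway, 46 were tested within 50 kb and none passed in any of the 7 comparisons. The share of all genes that passed ranged from 0.00654% (interaction) to 6.49% (T618I over both guides). The ligand genes Ifnb1, Ifna2 and Ifna4 had no peak within 10 kb in any library. Within 10 kb, 39 were tested and 1 rose with T618I over both guides, a share near the 2.08% of 11890 genes that rose. It was Nmi, which encodes a STAT-binding protein (0.54 ± 0.11, adjusted p = 0.017 in limma). Markers moved alongside the Ifitm locus. The summed covered length of 10 mature neutrophil genes was 20.8 to 25.8 kb (sgNT/Empty), 19.3 to 23.4 kb (sgB2/Empty), 40.5 to 44.1 kb (sgNT/T618I) and 35.4 to 39.8 kb (sgB2/T618I). Of 8 immature myeloid genes 4 fell and 1 rose with T618I. Of 9 monocyte genes tested 1 rose, and none of 5 plasmacytoid dendritic cell genes passed. Of 5 B lymphoid genes 2 fell. Over all genes tested within 50 kb, 4.06% rose and 2.43% fell. The part of these shifts in the Ifitm result was not tested. The share of covered length on chr7 was 6.98 to 7.15% in the 4 group means, and scaling within each chromosome kept Ifitm3 at 0.98 (adjusted p = 1.1e-05).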

How the data were processed

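Each of the 12 libraries had 1 deposited broad peak list, on mm10. Per the submitters' processing notes, the tools were BWA 0.7.17, SAMtools 1.9, bedtools 2.30, MACS2 2.2.7.1 and deepTools 3.5. The deposited score and the deposited fold, a ratio, were not used. The −log10 p and −log10 q that the authors deposited were used for ranking and filtering inside each list. The members, the lists and the rule for named genes were chosen with earlier results of these data known. Start peaks, and the members named for them, were chosen after their values were seen, as were regions beyond the first 8 by rank.

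Gene spans came from the RefSeq table of GRCm38.p6 (protein-coding genes on chromosomes 1 to 19 and X, plus Mx1 and Mx2). Covered length in the span ± 50 kb, or ± 10 kb, was scaled so that every library had the same total, and log2(scaled length + 500 bp) of genes averaging 500 bp or more was fitted in limma 3.58.1 (trend, R 4.3.3) to 4 group means, with 12 libraries, 8 residual degrees of freedom and Benjamini-Hochberg adjustment over all genes. The fit was also run on simulated data with independent normal noise for each gene. That noise holds no peaks shared between neighbouring genes, so the run says nothing about calls at overlapping windows. Peaks were merged at 1 bp or more of overlap. Values in every library were given for 1 member of each locus that passed, for the member of smallest p where none passed, and for the extremes of level. Shortened lists kept each library's best peaks by p-value up to the smallest covered length. Alternatives were other windows, peak thresholds, list lengths, scalings, pseudocounts, filters, a replicate block, a covariate and left-out libraries. Python 3.11.15 was used.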

Additional observations from a re-analysis of the deposited data

How the results depend on the processing

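The counts of members that passed over both guides with T618I (4) became 2 in the 10 kb window and ranged from 3 to 5 with 1 library left out; other alternatives gave 3 to 5. T618I in sgNT cells (3) gave 0 in the lists shortened to equal covered length and 1 at 10 kb (left-out libraries: 3 to 4). T618I in sgB2 cells (4) gave 0 in the shortened lists, 1 without scaling, 1 without the filter on low values, 1 at 10 kb and 2 without both Empty libraries numbered 1 (left-out libraries: 1 to 4, with 1 without sgB2/Empty 1 and 2 without sgB2/Empty 2, sgB2/T618I 1 or sgB2/T618I 3). sgB2 over both vectors (0) gave 1 with a pseudocount of 1000 bp, 1 with peak number as a covariate (Xaf1) and 1 without both Empty libraries numbered 1 (left-out libraries: 0 to 2, with 2 without sgB2/Empty 3). sgB2 in Empty cells (1) gave 0 with peaks of -log10 q at least 3, in the shortened lists, without scaling, with a pseudocount of 200 bp, without the filter, with scaling within chromosomes and at 10 kb (left-out libraries: 0 to 1). sgB2 in T618I cells (0) gave 1, Zbp1, with peaks of -log10 q at least 3, and 0 to 0 with libraries left out, as did the interaction. The 10 kb count for T618I over both guides (2) gave 0 in the shortened lists, where 15 members were tested, 6 without scaling, and 1 to 4 with libraries left out. The alternatives with both Empty libraries numbered 1 left out, with scaling within chromosomes and of the 10 kb count were chosen after seeing the data. No fitted change of a named member changed sign. The balance of regions gained and lost did turn in the shortened lists, as given below, and so did the group means of members with a start peak (25.7 with T618I against 21.7 in sgNT cells as deposited, 12.3 against 14.3 shortened). The counts that include Xaf1, and Zbp1 at 10 kb, rest on 1 group reaching the minimum.

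Without scaling, the median of all genes for T618I moved from -0.05 to 0.20, a shift of 0.26, and 837 genes rose and 16 fell against 621 and 371 as reported; relative to that median Ifitm3 was at 1.06 against 1.03. Same-numbered libraries of different groups had correlations of -0.158 to 0.216 in their deviations from the group mean, and differently numbered ones -0.298 to 0.252. With 3 libraries per group these values cannot settle whether the numbers pair the libraries. With the replicate block 5 members passed for T618I over both guides (Isg20 added), 3 in sgNT cells, 3 in sgB2 cells, 1 for sgB2 over both vectors (Cxcl10) and 0 for sgB2 in Empty cells.

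Regions gained with T618I in sgNT cells (11) numbered 2 in the shortened lists and 17 when 50% of a region had to be covered (left-out libraries, chosen after seeing the data: 11 to 15), and those lost (0) numbered 3 in the shortened lists (0 to 1). In sgB2 cells the gained (7) numbered 3 with peaks of -log10 q at least 3 and 1 in the shortened lists (7 to 10), and the lost (1) numbered 5 in the shortened lists (1 to 3). With sgB2 in Empty cells the gained (0) numbered 4 in the shortened lists (0 to 3), and the lost (1) numbered 0 with peaks of -log10 q at least 3, 0 in the shortened lists and 2 at 50% covered (1 to 9, with 9 without sgNT/Empty 1). With sgB2 in T618I cells the gained (0) numbered 1 with peaks of -log10 q at least 3 and 1 in the shortened lists (0 to 3), and the lost (7) numbered 0 in the shortened lists and 12 at 50% covered (7 to 12, with 12 without sgB2/T618I 2). Peak lists hold no read counts, so depth could not be weighed, and a peak missing from a list is not shown to be closed chromatin.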
